A study of Mus musculus with 40 samples.

Results

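Cholesterol is made from acetyl-CoA through the mevalonate pathway, squalene, lanosterol and a last set of sterol-modifying steps, and the liver is a main site of this synthesis. SREBP2, the transcription factor encoded by Srebf2, is held in the endoplasmic reticulum with its escort SCAP by the INSIG proteins when sterols are plentiful. When sterols are scarce it is carried to the Golgi, cut free and switches on the synthesis enzymes together. The 29 mouse genes described here are cholesterol synthesis enzymes, the sensing proteins around SREBP2, and sterol transport, storage and binding proteins. They were taken by symbol from a list of the pathway, all 29 were found among 24499 genes in the deposited tables, and all 29 passed the filter on low counts that kept 14355 genes.

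The data were messenger RNA reads per gene from whole liver of adult male C57BL/6 mice (C57BL6/J in the protocol), in 40 libraries with 1 animal number each. Mice of the DDC groups were first fed 0.05% w/w DDC, a porphyrinogenic compound given here to induce chronic liver fibrosis, and mice of the other groups first received a treatment labelled BD. DDC+EtOH (n = 6) and EtOH (n = 4) then received the treatment labelled HFD/EtOH, with ethanol infused by gastric tube, at no more than 27 g/kg daily and lasting at most 28 days. DDC+HFD (n = 6) and HFD (n = 6) received the treatment labelled HFD, DDC+Cont (n = 5) and Control 28D (n = 5) received BD, and DDC 0D (n = 4) and Control 0D (n = 4) had no second treatment. What BD and HFD stand for is not written out in the labels, which give no ages in days. The treatment label of the ethanol groups adds EtOH to that of the HFD groups.

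The libraries held between 7197939 and 26398061 reads assigned to genes, with a median of 13653500. Levels are given as CPM, read counts scaled to library size, with TMM factors that even out the composition of libraries. Fold changes are log2 values with their standard error from edgeR's quasi-likelihood test over all 40 libraries, and a gene was called at a Benjamini-Hochberg adjusted p under 0.05 over the 14355 genes. The labels give each library its own animal number. The p-values rest on the spread between animals of a group, pooled over all groups for each gene. All 6 hepatocyte markers were read in every library, and their summed level lay between 42519 and 98044 CPM. In 7 libraries 8 pancreatic enzyme transcripts summed to over 1000 CPM: HFD replicate 14, DDC+Cont replicate 24, DDC+HFD replicates 30, 33 and 36, and DDC+EtOH replicates 38 and 41. In whole liver, fewer cells of a type and less RNA per cell cannot be told apart.

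Control 28D livers show the usual scale of these transcripts. Per kilobase of exon, Insig1, which retains SREBP2 and is itself a target of it, had the highest level of the 29 there at 250 ± 67.6 CPM per kilobase (SD, n = 5). Hmgcs1, the synthase that makes HMG-CoA, had 181 ± 22.9, and Sc5d, a late sterol desaturase, had 168 ± 29.7 CPM per kilobase. Insig1, Hmgcs1 and Sc5d did not stand apart from each other beyond these spreads. Srebf2 had 5.94 ± 1.21 and Ggps1, which makes geranylgeranyl diphosphate for protein prenylation outside the sterol branch, had the lowest level at 2.85 ± 0.382 CPM per kilobase.

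Promoter letters are shown for Hmgcs1, whose variation between animals is used below, and for Mvk, which shares its start region with a gene outside the list. The sequences are from RefSeq, build GRCm38.p6, and 23 of the 29 members had an entry. Within 250 bases before the start, the sterol response motif CACNCCAC, searched on both strands, was found in 3 of the 23 (Acat2, Hmgcs1 and Insig1, 13.0%), against 5.16% of 27025 promoters. CCAAT, the NF-Y motif, was found in 19 of 23 (82.6%), against 34.5% of all promoters, and GGGCGG, the Sp1 motif, in 18 of 23 (78.3%), against 32.9%. CANNTG was found in 14 of 23 (60.9%), against 66.0%. A match is a run of letters and was not tested as a binding site. In the lines below, capitals mark CACNCCAC or its reverse complement in Hmgcs1 (chr13:119690101-119690350, plus strand), Acat2 (chr17:12960888-12960917 and chr17:12960760-12960789, minus strand) and Insig1 (chr5:28071382-28071411, plus strand), written 5′ to 3′ along the gene.
Hmgcs1: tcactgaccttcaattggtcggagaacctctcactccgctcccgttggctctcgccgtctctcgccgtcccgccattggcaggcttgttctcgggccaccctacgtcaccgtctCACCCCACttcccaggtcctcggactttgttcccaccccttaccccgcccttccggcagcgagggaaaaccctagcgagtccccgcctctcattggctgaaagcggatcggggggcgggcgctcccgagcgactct
Acat2 upper site: tggatcctccaCACCCCACcctaacccgac
Acat2 lower site: cgtgaggaggcGTGGCGTGgaggccatagc
Insig1: gggcgcggtacgtgtagtgtcGTGGCGTGt

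Mvk, mevalonate kinase, and Mmab, an enzyme of vitamin B12 metabolism, start 209 bases apart on chromosome 5 and run in opposite directions. The stretch between both starts (chr5:114444061-114444268, plus strand) held 5 matches to CCAAT or its reverse complement, in capitals.
Mvk and Mmab: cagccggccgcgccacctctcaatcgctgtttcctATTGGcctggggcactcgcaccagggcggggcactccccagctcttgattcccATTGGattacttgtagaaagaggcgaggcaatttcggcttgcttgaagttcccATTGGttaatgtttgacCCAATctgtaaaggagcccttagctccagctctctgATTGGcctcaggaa

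Ethanol added to HFD came with lower transcripts of the synthesis pathway, whether or not DDC had gone before. In DDC+EtOH against DDC+HFD, 16 of the 29 members fell and 1 rose, against 8.02% of all tested genes that fell and 8.53% that rose (16.5% in either direction). In EtOH against HFD, 13 fell and 1 rose, against 5.61% of all tested genes that fell and 7.84% that rose (13.5% in either direction). The 20 synthesis enzymes gave 16 of the 16 decreases after DDC and 12 of the 13 without DDC. Their median log2 fold change was -0.69 after DDC and -0.79 without it, against -0.009 and -0.005 for all genes tested. With only the 12 libraries of DDC+EtOH and DDC+HFD in the fit, in place of all 40, 1 member passed in DDC+EtOH against DDC+HFD (Pmvk) in place of 17. Hmgcs1 then had an adjusted p of 0.112, Sqle 0.0997 and Nsdhl 0.0681 by edgeR. The median SD of log2 CPM over the synthesis enzymes was 0.60 in DDC+EtOH and 0.46 in DDC+HFD, against 0.19 to 0.29 elsewhere. The fit over all 40 libraries shares 1 estimate of each gene's spread between groups. Where groups vary more than the others, as DDC+EtOH and DDC+HFD did here, its standard errors and p-values can be too small. Calls after DDC given below, except that of Pmvk, rest on that fit. Leaving out 1 library brought the 17 to 11 without DDC+EtOH replicate 39, and to 10 without DDC+EtOH replicate 40 or DDC+HFD replicate 32.

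**Figure D1:**
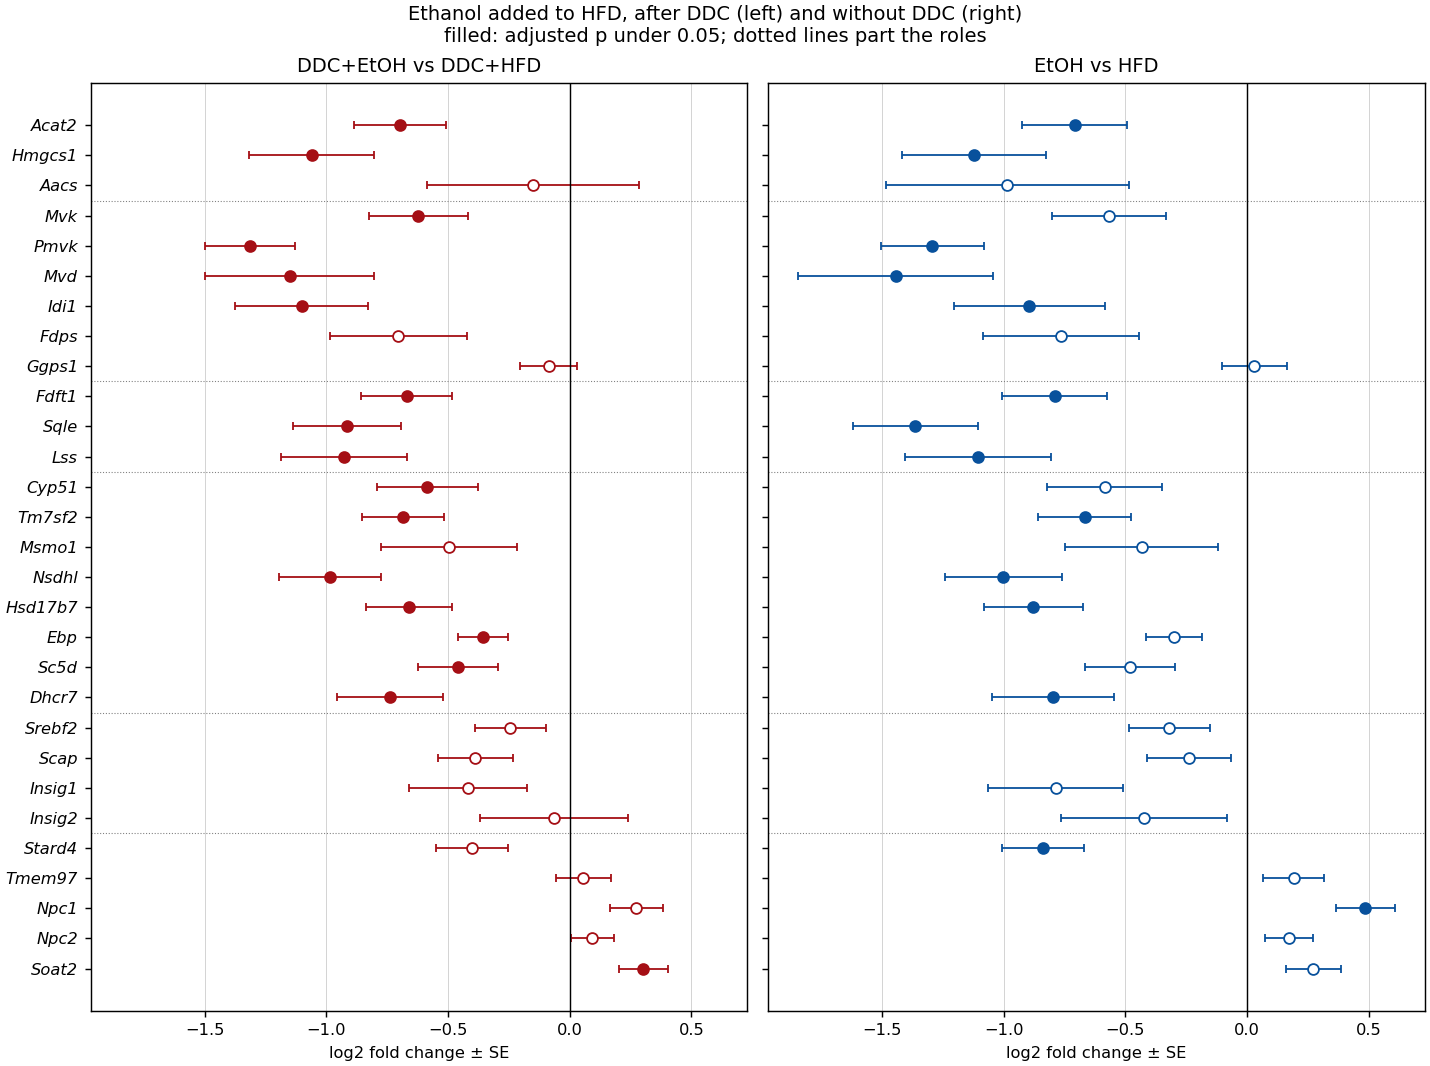
Log2 fold change with its standard error for the 29 members, ordered by role, in DDC+EtOH against DDC+HFD (left) and EtOH against HFD (right); filled points had an adjusted p under 0.05. Most synthesis enzymes lie left of 0 in both panels, Pmvk near -1.3 in each, while Ggps1 lies near 0 and Npc1 and Soat2 lie right of it.

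Among the enzymes of acetyl-CoA entry, Hmgcs1 had a lowest, median and highest level of 195, 328 and 794 CPM in DDC+EtOH livers, against 512, 739 and 1502 CPM in DDC+HFD livers. Hmgcs1 had 286, 356, 391 and 447 CPM in the 4 EtOH livers, against 513, 773 and 1236 CPM as lowest, median and highest in HFD livers. Every EtOH liver lay below every HFD liver, whereas the DDC+EtOH and DDC+HFD livers overlapped through DDC+EtOH replicate 38. The log2 fold change was -1.06 ± 0.26 after DDC (adjusted p 0.00367) and -1.12 ± 0.30 without DDC (adjusted p 0.00836). Acat2, the cytosolic thiolase that joins acetyl-CoA units, fell by 0.70 ± 0.19 and 0.71 ± 0.21 on the log2 scale in the same order (adjusted p 0.00886 and 0.0228 by edgeR). Aacs, which activates acetoacetate for lipid synthesis, did not pass, at -0.15 ± 0.43 after DDC and -0.98 ± 0.50 without it.

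Pmvk, phosphomevalonate kinase, gave the clearest separation of the 29. It had 20.1, 29.8 and 42.3 CPM as lowest, median and highest in DDC+EtOH livers, against 52.3, 75.5 and 124 CPM in DDC+HFD livers. Pmvk had 26.8, 34.7, 35.4 and 37.1 CPM in the EtOH livers, against 70.9, 82.9 and 96.0 CPM in HFD livers. No ethanol-fed liver reached the lowest liver of its HFD group in either pair. Pmvk fell by 1.31 ± 0.18 after DDC (adjusted p 3.23e-06) and by 1.29 ± 0.21 without DDC (adjusted p 3.68e-05) on the log2 scale, and it stayed called in every alternative run for both. It was the 1 member of DDC+EtOH wholly below DDC+HFD, where 1.30% of all tested genes lay so.

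The other mevalonate enzymes differed among themselves. Mvd, which decarboxylates mevalonate diphosphate, fell by 1.15 ± 0.35 after DDC and by 1.44 ± 0.40 without it on the log2 scale. Idi1, the isopentenyl diphosphate isomerase, fell by 1.10 ± 0.27 after DDC (adjusted p 0.00447) and by 0.89 ± 0.31 without it (adjusted p 0.0498), and the second call was lost in 13 of 18 alternatives. Mvk fell by 0.62 ± 0.21 after DDC (adjusted p 0.0329), a call lost in 9 of 20 alternatives, and was at -0.57 ± 0.23 without DDC (adjusted p 0.105). Fdps, which makes farnesyl diphosphate, was at -0.71 ± 0.28 and -0.76 ± 0.32 (adjusted p 0.0818 and 0.113 by edgeR), and it shares 26.7% of its exon bases with Gm43738 on the same strand. Ggps1 was at -0.09 ± 0.12 and 0.03 ± 0.13, with 95% intervals of -0.33 to 0.15 after DDC and -0.24 to 0.30 without it.

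In the fit over all 40 libraries, all 3 enzymes from farnesyl diphosphate to lanosterol fell in both pairs. None of the 3 passed after DDC with only the libraries of that pair in the fit. Sqle, squalene epoxidase, an early oxygen-using step of the sterol branch, had 35.0, 82.1 and 127 CPM as lowest, median and highest in DDC+EtOH livers, against 94.1, 141 and 249 CPM in DDC+HFD livers. Sqle had 40.2, 54.0, 62.4 and 67.7 CPM in EtOH livers, against 119, 135 and 209 CPM in HFD livers. The groups without DDC did not overlap, and those after DDC did. Sqle fell by 0.92 ± 0.22 after DDC (adjusted p 0.00341) and by 1.36 ± 0.26 without it (adjusted p 0.000277). Fdft1, squalene synthase, fell by 0.67 ± 0.19 and 0.79 ± 0.21, and Lss, which closes the ring to lanosterol, by 0.93 ± 0.26 and 1.11 ± 0.30. Fdft1 shares 18.3% of its exon bases with Ctsb on the opposite strand, so its count is uncertain where the counting did not use strand.

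From lanosterol to cholesterol, 7 of 8 enzymes fell after DDC and 4 of 8 without it. Nsdhl, a decarboxylating sterol dehydrogenase, had 16.1, 42.4 and 61.6 CPM as lowest, median and highest in DDC+EtOH livers, against 49.9, 77.1 and 117 CPM in DDC+HFD livers. Nsdhl had 22.9, 38.8, 42.0 and 43.3 CPM in EtOH livers, against 53.0, 73.6 and 93.6 CPM in HFD livers. It fell by 0.99 ± 0.21 after DDC (adjusted p 0.00102) and by 1.00 ± 0.24 without it (adjusted p 0.00379). Hsd17b7, the sterol ketoreductase, fell by 0.66 ± 0.18 and 0.88 ± 0.20, and Dhcr7, which makes cholesterol from its last precursor in one branch, by 0.74 ± 0.22 and 0.80 ± 0.25. Tm7sf2, a sterol reductase, fell by 0.69 ± 0.17 and 0.67 ± 0.19, and shares 12.1% of its exon bases with Vps51 on the same strand. Ebp, the sterol isomerase, fell by 0.36 ± 0.10 after DDC (adjusted p 0.0142) and was at -0.30 ± 0.12 without it (adjusted p 0.0799). Sc5d and Cyp51, the lanosterol demethylase, fell by 0.46 ± 0.16 and 0.59 ± 0.21 after DDC at adjusted p 0.0487 and 0.0482 by edgeR, calls lost in 10 and 11 of 20 alternatives. Without DDC, Sc5d and Cyp51 were at -0.48 ± 0.18 and -0.58 ± 0.24 and did not pass. Msmo1, the sterol methyl oxidase, passed in neither pair, at -0.50 ± 0.28 after DDC and -0.43 ± 0.31 without it.

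None of the 4 sensing genes passed in either ethanol comparison. Srebf2 was at -0.24 ± 0.15 after DDC and -0.32 ± 0.17 without it, with 95% intervals of -0.54 to 0.05 and -0.66 to 0.02. Insig1 was at -0.42 ± 0.24 and -0.79 ± 0.28 (adjusted p 0.256 and 0.0543 by edgeR), and all 4 EtOH livers lay below all 6 HFD livers for it. Among further SREBP processing and sterol-sensing partners, Erlin2 rose by 0.17 ± 0.06 after DDC, and none was called without DDC.

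Among the transport and storage genes, 1 rose in each pair and 1 fell in EtOH against HFD. Soat2, which esterifies cholesterol in hepatocytes, had 34.6, 40.4 and 52.3 CPM as lowest, median and highest in DDC+EtOH livers, against 31.4, 32.3 and 40.4 CPM in DDC+HFD livers. It rose by 0.30 ± 0.10 (adjusted p 0.0351, lost in 10 of 20 alternatives) and was at 0.27 ± 0.11 in EtOH against HFD (adjusted p 0.106). Npc1, which moves cholesterol out of lysosomes, had 150, 160, 172 and 214 CPM in EtOH livers, against 114, 125 and 135 CPM as lowest, median and highest in HFD livers. Every EtOH liver lay above every HFD liver, where 8.99% of all tested genes lay so. Npc1 rose by 0.49 ± 0.12 without DDC (adjusted p 0.00483, lost without EtOH replicate 21) and was at 0.27 ± 0.11 after DDC (adjusted p 0.0785). Stard4, a soluble sterol carrier, fell by 0.84 ± 0.17 without DDC (adjusted p 0.000531) and was at -0.40 ± 0.15 after DDC (adjusted p 0.0545). Npc2, the soluble partner of NPC1, and Tmem97, the sigma-2 receptor, which binds NPC1, passed in neither pair.

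In all, 19 members had every EtOH liver below every HFD liver, against 6.79% of all tested genes. In the fit over all 40 libraries, 12 members fell in both pairs, 4 only after DDC and 1 only without DDC. Passing in one pair only does not show a difference. Among the 12, the Acat2 call was lost in 2 of 20 alternatives after DDC and 3 of 18 without it. That of Dhcr7 was lost in 3 of 20 and 4 of 18, and that of Mvd in 4 of 20 after DDC. The difference between the 2 ethanol effects was tested in the same fit, and it passed for 0 members and 0% of all genes in edgeR, with 0 members at an unadjusted p under 0.05 and 0 by DESeq2. For Hmgcs1 that difference was 0.06 (95% interval -0.71 to 0.84), and for Pmvk -0.02 (-0.57 to 0.53). Sqle had 0.45 (-0.22 to 1.12) and Stard4 had 0.44 (-0.01 to 0.88), with an adjusted p of 0.985 for Stard4.

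**Figure D2:**
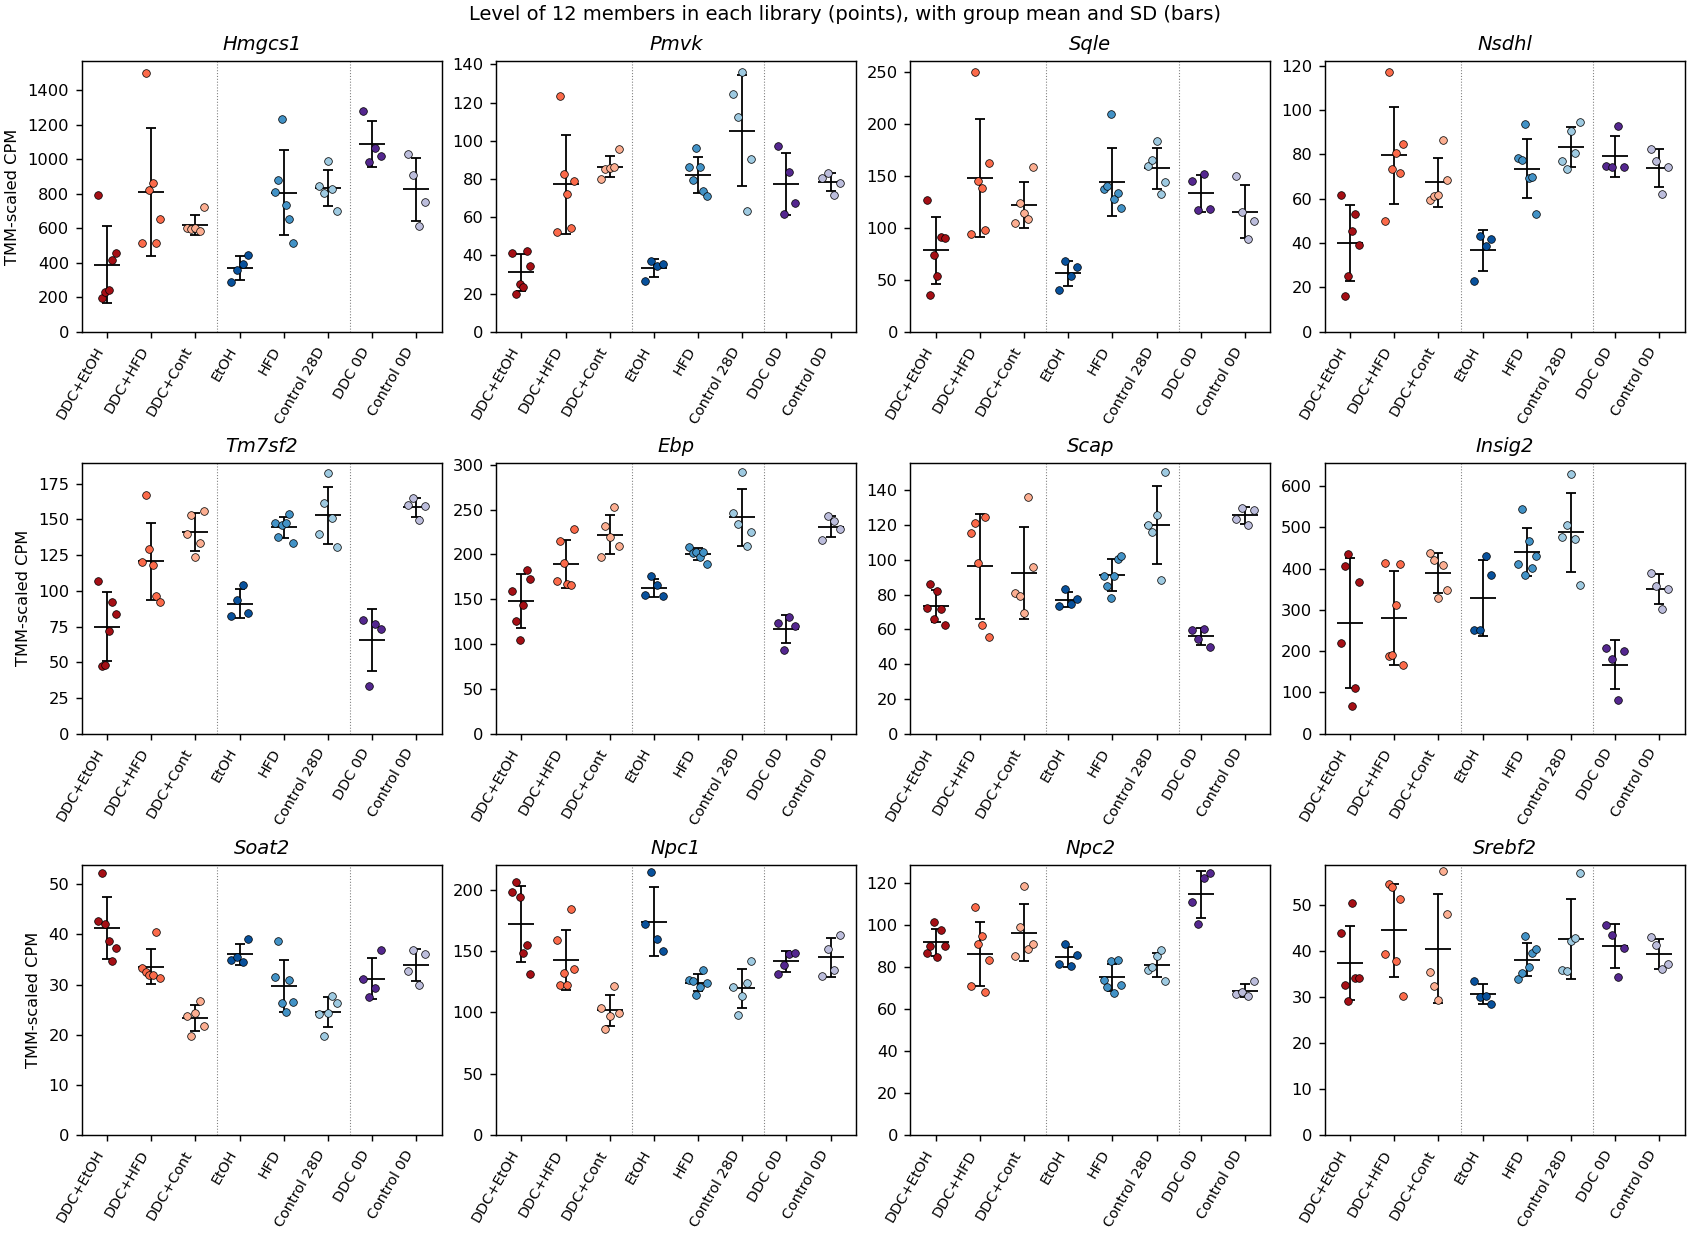
TMM-scaled CPM of 12 members in each of the 40 libraries (points), with the group mean and SD (bars). Hmgcs1, Pmvk, Sqle and Nsdhl have their lowest points in DDC+EtOH and EtOH, Tm7sf2, Ebp, Scap and Insig2 have low points in DDC 0D, and Npc2 is highest in DDC 0D.

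Over the 8 groups, 17 of the 20 synthesis enzymes had their lowest mean in an ethanol group, and for 16 of the 20 the 2 lowest means were DDC+EtOH and EtOH. The exceptions to the second count were Ggps1, Tm7sf2, Ebp and Sc5d, of which the last 3 were lowest in DDC 0D. This order was not counted over all genes, so neither count has a share to be read against. The ethanol means come from the same libraries as the comparisons above, and the enzymes varied together between animals, as given below. Earlier DDC gave no called member among livers that had the HFD or HFD/EtOH treatment. In DDC+EtOH against EtOH, 0 of 29 members passed in edgeR, against 6.69% of all tested genes (4.12% that rose and 2.57% that fell), with 0 at an unadjusted p under 0.05 and 0 by DESeq2. In DDC+HFD against HFD, 0 of 29 passed in edgeR, against 13.5% of all tested genes (7.96% that rose and 5.49% that fell), with 2 at an unadjusted p under 0.05 and 0 by DESeq2. Without the pancreas-bearing libraries, Insig2 (-1.01) and Npc2 (0.34) passed in DDC+HFD against HFD.

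Other measures moved with the ethanol groups, and their part in the result was not tested. The clock score, the mean log2 level of Arntl, Npas2 and Clock less that of Dbp, Tef, Hlf and Per3, ran from -2.06 to 1.18 in DDC+EtOH, against -0.63 to 1.84 in DDC+HFD, and from -1.84 to 0.31 in EtOH, against 0.85 to 2.08 in HFD. With that score as a term in the fit, 20 members passed in DDC+EtOH against DDC+HFD and 21 in EtOH against HFD. The scores of EtOH and HFD did not overlap, so the clock score and ethanol cannot be told apart in that pair. All 6 neutrophil markers fell in DDC+EtOH against DDC+HFD, with summed levels of 9.61 to 43.2 CPM in DDC+EtOH, against 13.3 to 721 CPM in DDC+HFD. In the same pair 4 of 6 macrophage markers and 3 of 6 stellate cell markers rose and 2 of 6 hepatocyte markers fell. In EtOH against HFD, 1 of 6 hepatocyte markers fell, with summed levels of 51637 to 63526 CPM in EtOH and 58011 to 87054 CPM in HFD. In the same pair 1 of 6 bile duct markers fell and 1 of 6 macrophage markers rose.

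Genes of nearby lipid pathways also passed in both ethanol pairs, where 16.5% of all tested genes passed after DDC and 13.5% without it. Of 11 fatty acid synthesis genes, 3 fell in each ethanol pair and none rose. These were Acss2, which makes acetyl-CoA from acetate, at -1.12 ± 0.31 after DDC and -1.30 ± 0.35 without it, Scd1, the fatty acid desaturase, at -1.26 ± 0.35 and -1.28 ± 0.40, and Pnpla3, a lipid droplet protein, at -2.34 ± 0.76 and -3.62 ± 0.99. Of 10 LXR and sterol efflux genes, 1 rose and 2 fell after DDC, Abcg1 at 0.36 ± 0.13, Scarb1, the HDL receptor, at -0.57 ± 0.17, and Abca1, the sterol exporter, at -0.27 ± 0.08. Without DDC, Abca1 (-0.36 ± 0.09) and Nr1h3, which encodes LXR alpha (-0.33 ± 0.09), fell. Of 9 bile acid synthesis genes, 5 fell after DDC and 2 without it, among them Cyp27a1, the sterol 27-hydroxylase of the alternative route, at -0.82 ± 0.12 and -0.76 ± 0.13, and Cyp7a1, the rate-limiting enzyme of the classic route, at -1.40 ± 0.45 after DDC alone.

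DDC feeding with no second treatment came with changes in 3 late enzymes, 2 sensing genes and 2 transport genes. In DDC 0D against Control 0D, 6 of 29 members fell and 1 rose, where 24.5% of all tested genes fell and 27.5% rose (52.0% in either direction). For these 7 the DDC 0D and Control 0D libraries did not overlap, where 23.8% of all tested genes lay wholly below and 26.0% wholly above. Both shares of members were thus not above those of all genes. None of the 12 enzymes from Acat2 to Lss passed, and the median log2 fold change over the 20 synthesis enzymes was -0.04, against 0.006 for all genes.

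**Figure D3:**
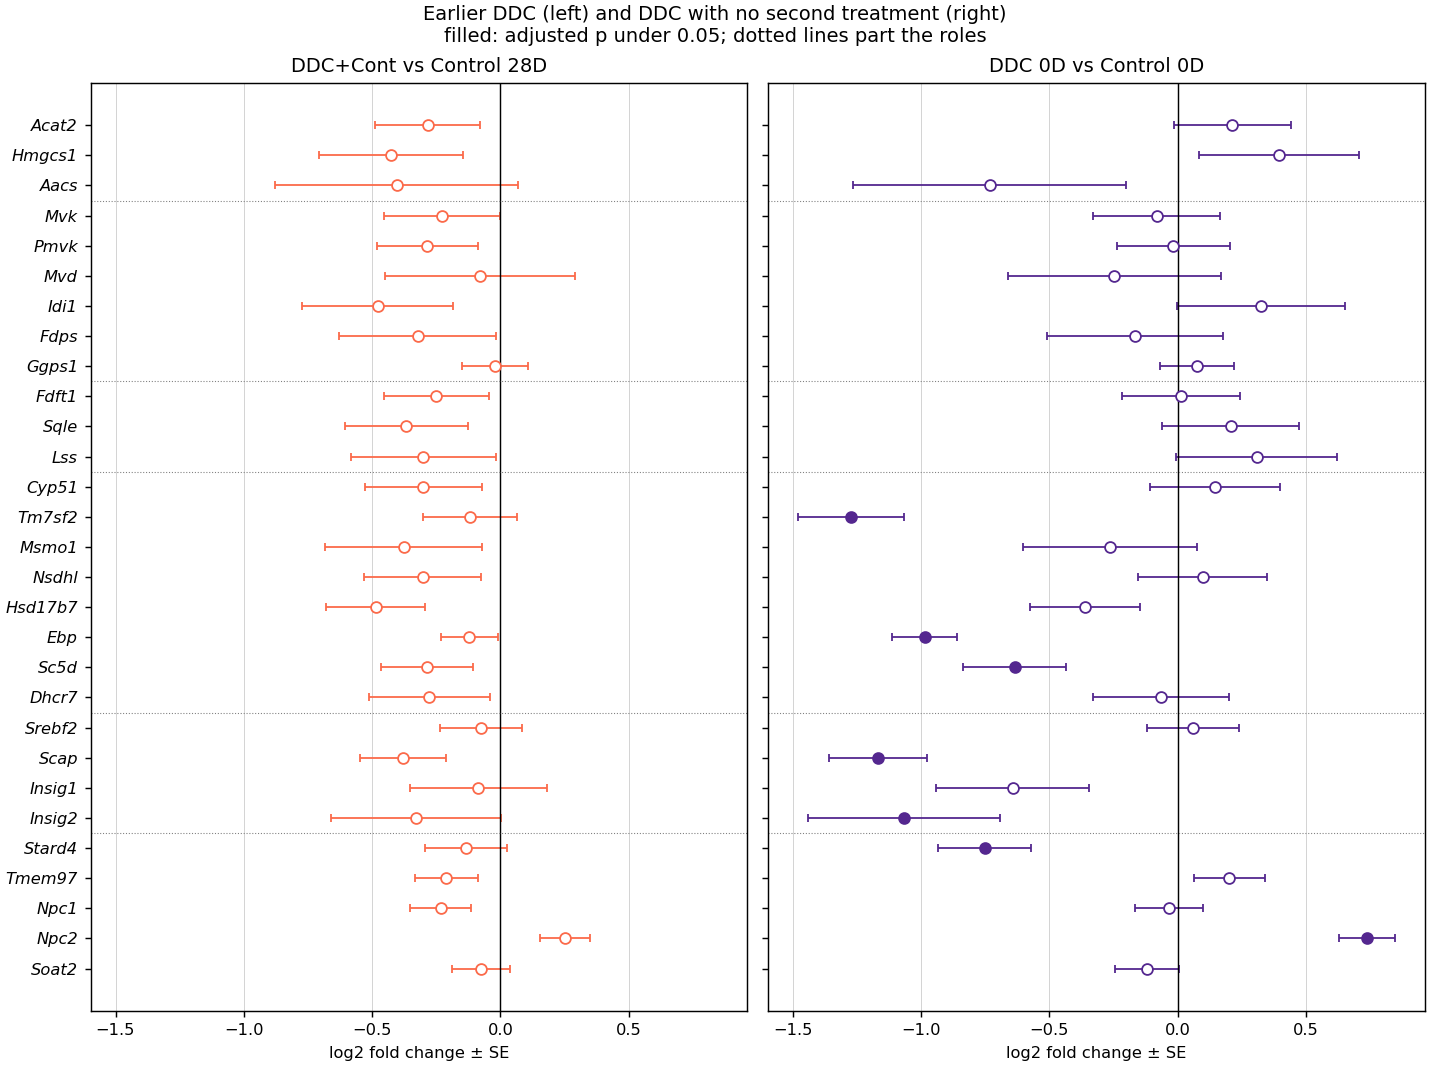
Log2 fold change with its standard error for the 29 members in DDC+Cont against Control 28D (left) and DDC 0D against Control 0D (right); filled points had an adjusted p under 0.05. Only the right panel has filled points, Tm7sf2, Ebp, Sc5d, Scap, Insig2 and Stard4 on the left of 0 and Npc2 on the right.

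Tm7sf2 had 33.0, 72.9, 76.9 and 79.8 CPM in DDC 0D livers, against 150, 160, 160 and 165 CPM in Control 0D livers, and fell by 1.27 ± 0.21 (adjusted p 3.24e-06). Ebp had 93.3, 120, 124 and 130 CPM in DDC 0D livers, against 216, 229, 238 and 243 CPM in Control 0D livers, and fell by 0.99 ± 0.13 (adjusted p 3.66e-08). Every DDC 0D liver lay below every Control 0D liver for both genes. Scap, the sterol sensor that escorts SREBP2, had 49.5, 54.3, 59.5 and 60.3 CPM in DDC 0D livers, against 120, 123, 129 and 130 CPM in Control 0D livers. It fell by 1.17 ± 0.19 (adjusted p 2.94e-06), while Srebf2 itself was at 0.06 ± 0.18. Sc5d and Stard4 fell by 0.63 ± 0.20 and 0.75 ± 0.18.

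Insig2, the SREBP2-retaining protein whose gene, unlike Insig1, is not induced by SREBP2, had 81.5, 180, 199 and 208 CPM in DDC 0D livers, against 302, 350, 358 and 389 CPM in Control 0D livers. It fell by 1.07 ± 0.37 (adjusted p 0.0169), a call lost without DDC 0D replicate 7. The clock score lay between -2.20 and -0.44 in DDC 0D livers, and between 1.06 and 2.40 in Control 0D livers. With it as a term in the fit Insig2 was at 0.14 (adjusted p 0.748 by edgeR). The scores of both groups did not overlap, so the clock score and DDC cannot be told apart in this pair. Npc2 had 101, 111, 123 and 125 CPM in DDC 0D livers, against 66.6, 67.3, 68.3 and 73.3 CPM in Control 0D livers, and rose by 0.74 ± 0.11 (adjusted p 4.82e-07).

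Cell type markers moved with these livers, and their part in the members' changes was not tested. All 6 hepatocyte markers fell, with a median of -1.06 on the log2 scale and sums in DDC 0D livers between 42519 and 55172 CPM, against 74710 to 81769 CPM in Control 0D livers. All 6 bile duct, all 6 macrophage and all 6 stellate cell markers rose, as did 4 of 6 neutrophil markers. The bile duct sum lay between 912 and 1062 CPM in DDC 0D livers, and between 39.0 and 49.1 CPM in those of Control 0D. The TMM factors lay between 1.22 and 1.23 in DDC 0D, and between 0.94 and 0.99 in Control 0D. The counts of other lists in this pair stand against 52.0% of all tested genes called, 24.5% that fell and 27.5% that rose. Of 9 bile acid synthesis genes, 7 fell, among them Cyp8b1, the sterol 12-alpha-hydroxylase, at -5.30 ± 0.61 and Cyp7b1 at -3.52 ± 0.36. Of 10 LXR and efflux genes 2 rose, Abcg1 by 1.22 ± 0.16 and Rnf145 by 1.10 ± 0.15, and 2 fell, Nr1h3 by 0.58 ± 0.10 and Abca1 by 0.47 ± 0.10. Among the SREBP partners, Mbtps2, a protease that frees SREBP, rose by 0.47 ± 0.11, and Faf2 and Mbtps1 fell by 0.32 and 0.26. Of 11 fatty acid synthesis genes 2 fell, Mlxipl by 1.65 ± 0.22 and Me1 by 0.98 ± 0.37.

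After the second treatment with BD no member passed. In DDC+Cont against Control 28D, 0 of 29 members passed in edgeR, against 1.52% of all tested genes, with 3 at an unadjusted p under 0.05 and 0 by DESeq2. No member had its DDC+Cont livers wholly above or below Control 28D, where 2.35% and 1.27% of all tested genes did. Scap was at -0.38 (95% interval -0.72 to -0.04), Ebp at -0.12 (-0.35 to 0.11) and Tm7sf2 at -0.12 (-0.49 to 0.25). The log2 fold change was below 0 for 28 of the 29 members, and its median over the 20 synthesis enzymes was -0.29, against -0.006 for all genes. The change of the DDC effect between both stages passed for 5 of 29 members, 4 with a positive and 1 with a negative value, against 32.1% of all tested genes (14.5% positive and 17.6% negative). These were Tm7sf2 (1.16 ± 0.27), Ebp (0.87 ± 0.17), Scap (0.79 ± 0.25), Stard4 (0.62 ± 0.24) and Npc2 (-0.49 ± 0.15). The Stard4 call was lost in 15 of 26 alternatives, and with only the 18 libraries of the 4 groups 11 members passed.

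DDC+Cont against DDC 0D gave the direct comparison over the second period, with 6 members that rose and 5 that fell, against 20.2% and 23.2% of all tested genes (43.4% in either direction). The 6 that rose were the 6 that had fallen under DDC, led by Insig2 (1.22 ± 0.36), Tm7sf2 (1.10 ± 0.20) and Ebp (0.93 ± 0.12), and DDC 0D is shared by both comparisons. Those that fell were Hmgcs1 (-0.81 ± 0.29), Npc1 (-0.48 ± 0.13), Soat2 (-0.43 ± 0.12), Tmem97 (-0.34 ± 0.13) and Npc2 (-0.25 ± 0.10). Hmgcs1 had 583, 594, 600, 600 and 726 CPM in DDC+Cont livers, against 985, 1016, 1065 and 1280 CPM in DDC 0D livers. Hmgcs1 was 1 of 6 members with every DDC+Cont liver below every DDC 0D liver, where 18.6% of all tested genes lay so. Wholly above lay 7 members, where 15.3% of all tested genes did. The Hmgcs1 call was lost without DDC 0D replicate 5 (-0.70, adjusted p 0.0796) and with the clock score as a term (-0.16, adjusted p 0.790 by edgeR). With that term Insig2 was at -0.25 (adjusted p 0.605 by edgeR). The clock scores of DDC+Cont and DDC 0D did not overlap, so the score and the group cannot be told apart in this pair. The Stard4 call was lost without DDC 0D replicate 6. The Npc2 call was lost in 11 and the Tmem97 call in 7 of 17 alternatives. Cell type markers moved in this comparison too, and their part in the members' changes was not tested: 4 of 6 hepatocyte markers rose, and 5 of 6 bile duct, 5 of 6 macrophage and 6 of 6 stellate cell markers fell. The hepatocyte sum lay between 50781 and 91046 CPM in DDC+Cont, against 42519 to 55172 CPM in DDC 0D, and the bile duct sum between 83.8 and 133 CPM in DDC+Cont, against 912 to 1062 CPM in DDC 0D.

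HFD alone left these genes without a detectable change in livers that had not received DDC. In HFD against Control 28D, 0 of 29 passed in edgeR, against 0.376% of all tested genes, with 3 at an unadjusted p under 0.05 and 0 by DESeq2. Ebp alone had every HFD liver below every Control 28D liver, as 1.00% of all tested genes did, and none lay wholly above, as 1.04% did. In DDC+HFD against DDC+Cont, 2 of 29 rose and none fell, against 1.87% of all tested genes that rose and 1.53% that fell (3.40% in either direction). Soat2 had 31.4, 32.3 and 40.4 CPM as lowest, median and highest in DDC+HFD livers, against 19.9, 21.8, 23.7, 24.3 and 26.7 CPM in DDC+Cont livers. Npc1 had 122.0, 134 and 184 CPM in DDC+HFD livers, against 86.3, 97.5, 99.9, 103 and 121.7 CPM in DDC+Cont livers. The groups did not overlap for either gene, where 1.16% of all tested genes lay wholly above. Soat2 rose by 0.53 ± 0.11 (adjusted p 0.00559) and Npc1 by 0.48 ± 0.12 (adjusted p 0.0143). Without the pancreas-bearing libraries the adjusted p was 0.0539 for Soat2 and 0.197 for Npc1, and the Npc1 call was also lost without DDC+Cont replicate 25. In the same pair 5 of 6 neutrophil markers and 2 of 6 bile duct markers rose and 2 of 6 hepatocyte markers fell, and their part in the result was not tested. The neutrophil sum lay between 13.3 and 721 CPM in DDC+HFD, against 10.1 to 122 CPM in DDC+Cont. The test of whether the HFD effect differed by earlier DDC passed for 0 members and 0% of all genes in edgeR, with 1 at an unadjusted p under 0.05 (Npc1, 0.43 ± 0.16) and 0 by DESeq2.

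Between control livers, Control 28D against Control 0D, 1 of 29 members fell and none rose, against 0.836% of all tested genes that fell and 1.62% that rose (2.46% in either direction). Soat2 had 19.8, 24.2, 24.2, 26.3 and 27.8 CPM in Control 28D livers, against 29.9, 32.6, 36.1 and 37.0 CPM in Control 0D livers, and fell by 0.47 ± 0.12 (adjusted p 0.0213). The call was lost without Control 0D replicate 2 or 4 or without Control 28D replicate 10.

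Animals of the same group also differed in how strongly the pathway was read. The median SD of log2 CPM over the 20 synthesis enzymes was 0.60 in DDC+EtOH and 0.46 in DDC+HFD, against 0.19 to 0.29 in the other 6 groups. The same median over all genes was 0.22 in DDC+EtOH and 0.21 in DDC+HFD, against 0.12 to 0.18 elsewhere, and the differences in spread were not tested. DDC+HFD replicate 32 had the highest level of its group for Hmgcs1 (1502 CPM), and DDC+EtOH replicate 38 had the highest of its group (794 CPM).

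The enzymes varied together from animal to animal. Within groups, the slope of each gene on Hmgcs1 was fitted over the 40 libraries, with the deviation of log2 Hmgcs1 from its group mean as a term. The slope was positive and called for 17 of the 28 other members and negative for none, against 1.28% of all tested genes called positive and 0.704% called negative (1.99% in either direction). The median slope was 0.60 over the 28 members and 0.002 over all genes, in log2 per log2 of Hmgcs1. All libraries share their reads between genes, and the slope says nothing of what sets Hmgcs1. The deviation of Hmgcs1 ran from -0.82 to 1.21 in DDC+EtOH, -0.56 to 0.99 in DDC+HFD and -0.60 to 0.67 in HFD. It ran only from -0.08 to 0.23 in DDC+Cont, and slopes within single groups were not tested. Members held the 8 smallest p-values of 14354 genes, led by Fdft1 (0.69 ± 0.05), Mvk (0.74 ± 0.06) and Hsd17b7 (0.63 ± 0.06).

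**Figure D4:**
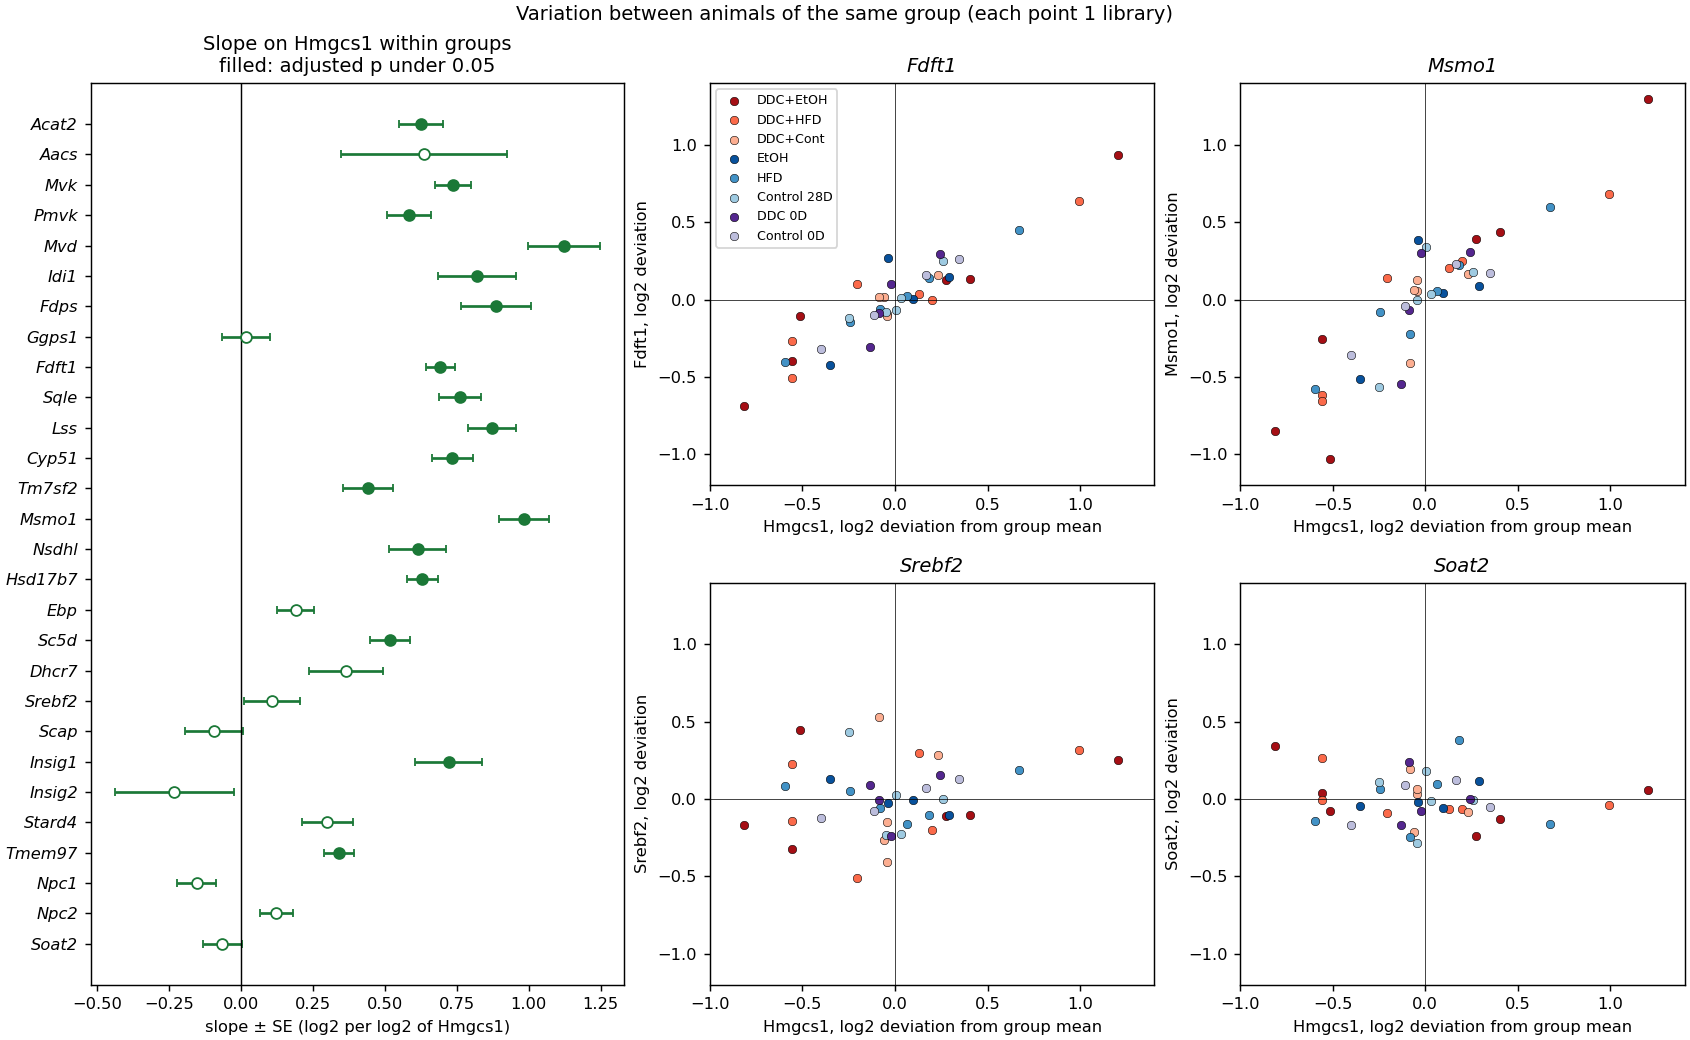
Left, slope of 28 members on the within-group deviation of Hmgcs1 with its standard error, filled where the adjusted p was under 0.05; right, log2 deviations from the group mean of Fdft1, Msmo1, Srebf2 and Soat2 against that of Hmgcs1, 1 point a library. Over all libraries Fdft1 and Msmo1 rise with Hmgcs1, which has its highest deviations in DDC+EtOH and DDC+HFD, while Srebf2 and Soat2 scatter around 0.

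The steepest slopes were those of Mvd (1.12 ± 0.12) and Msmo1 (0.98 ± 0.09). Msmo1, which passed in neither ethanol pair, thus followed Hmgcs1 between animals of a group. Insig1 (0.72 ± 0.12) and Tmem97 (0.34 ± 0.05) were the called members outside the enzymes. The 11 not called were Aacs, Ggps1, Ebp, Dhcr7, Srebf2, Scap, Insig2, Stard4, Npc1, Npc2 and Soat2. Of these, Srebf2 had a slope of 0.11 ± 0.10, Scap -0.09 ± 0.10 and Ggps1 0.02 ± 0.08. Without the pancreas-bearing libraries 15 members passed, and the calls of Tmem97 (adjusted p 0.110 by edgeR) and Tm7sf2 (adjusted p 0.0627 by edgeR) were lost.

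Among the 10 genes outside the list with the smallest p for this slope were Rdh11, a retinol dehydrogenase (0.59 ± 0.08), Aldh1a7 (0.35 ± 0.05), Pstpip2 (0.60 ± 0.09) and Mmab (0.45 ± 0.08), the neighbour that shares the printed stretch with Mvk. Of the other lists, 1 of 11 fatty acid synthesis genes, 1 of 9 bile acid synthesis genes and none of 10 LXR and 8 SREBP partner genes had a called slope.

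Insig2 rose with the clock score within groups in a fit over all libraries, though not in every group. Its slope on Hmgcs1 was -0.23 ± 0.21 and was not called. On the clock score within groups, a fit added after the data were seen, Insig2 had a slope of 0.44 ± 0.07 log2 per unit of the score (adjusted p 0.000159), the only positive call of 29, against 0.795% of 14348 genes. The 3 DDC+EtOH livers with scores from -2.06 to -1.89 had 219, 67.6 and 111 CPM of Insig2 (replicates 38, 41 and 42), and the 3 with scores from 0.82 to 1.18 had 406, 435 and 368 CPM (replicates 39, 40 and 43). Among EtOH livers, replicate 21 had a score of -1.84 and 250 CPM of Insig2, close to the 251 CPM of replicate 20, which had a score of 0.31. Control 0D livers with scores of 1.06, 1.19, 2.06 and 2.40 had 389, 358, 302 and 350 CPM of Insig2. Negative slopes were called for 8 members (Aacs, Fdps, Fdft1, Lss, Nsdhl, Sc5d, Insig1 and Stard4), against 0.920% of all genes (1.71% in either direction). Without the pancreas-bearing libraries the Insig2 slope stayed called and none of the 8 did. Leaving out 1 library moved the 9 calls to 4 without DDC+EtOH replicate 39 and to 17 without DDC+EtOH replicate 43.

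**Figure D5:**
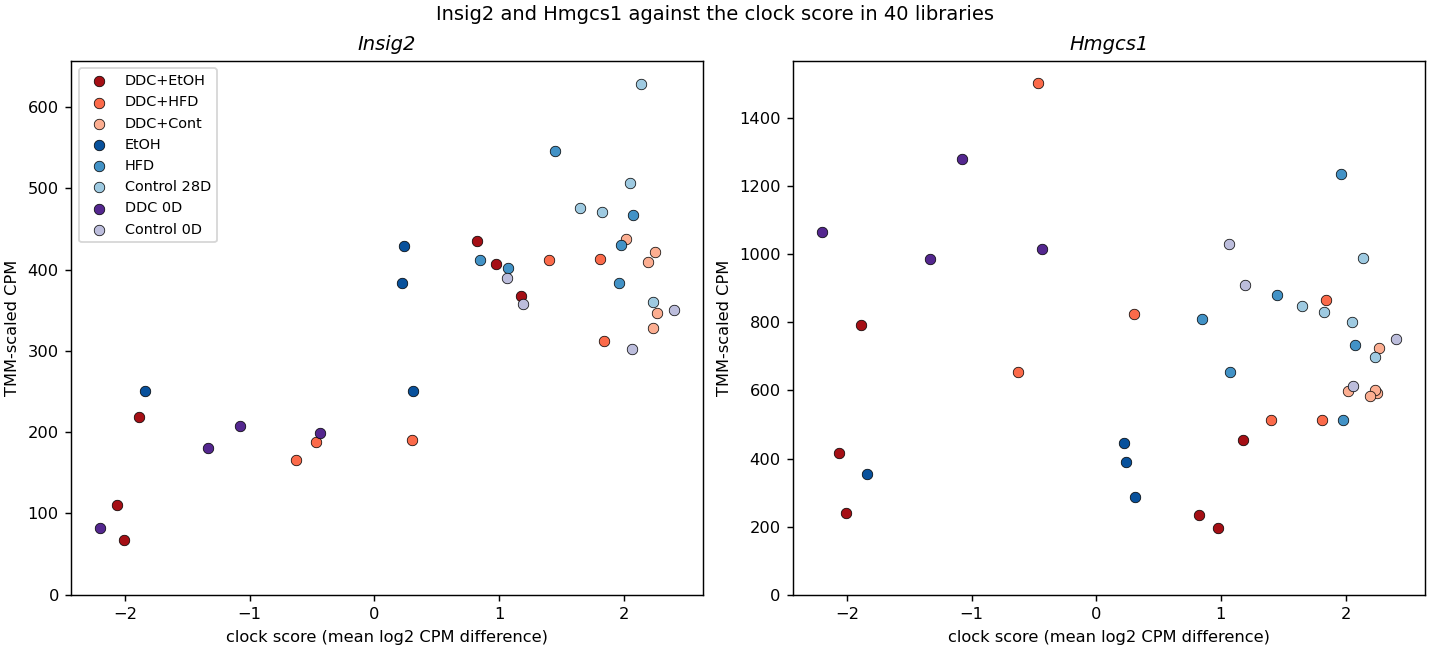
TMM-scaled CPM of Insig2 (left) and Hmgcs1 (right) against the clock score in the 40 libraries, coloured by group. Insig2 is low, from 67.6 to 219 CPM, in DDC 0D, DDC+EtOH and DDC+HFD livers with low scores, the EtOH livers lie higher, at 250 to 430 CPM, and the Hmgcs1 slope on the score was not called (-0.19 ± 0.08).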

How the data were processed

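The authors deposited raw read counts per gene symbol, 1 table per library, with closing tallies of uncounted reads that were left out here. Per the labels' protocols, the TruSeq mRNA kit was used on RNA of snap-frozen liver. Names listed by the submitters' processing notes, with no role, are GSNAP, DESeq2 1.12.3 and the build mm10. How reads were counted, with which annotation and strand, is not given here. Multiply aligned reads stand in a tally of their own, so Acat2, which has a close copy (Acat3), is uncertain.

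Groups came from the titles. All 40 libraries entered 1 edgeR 4.0.16 fit (R 4.3.3) with 8 group terms, TMM factors, the filterByExpr default, robust quasi-likelihood dispersion and Benjamini-Hochberg adjustment over 14355 genes. The standard error is the log2 fold change divided by the square root of F. The 95% intervals use it with the t quantile of the test's total degrees of freedom, residual and prior. Per-kilobase levels divide CPM by union exon length in GENCODE vM21 (GRCm38). Scripts were tested on simulated data. Alternatives were RLE size factors, no or a stricter low-count filter (1 CPM in 4 libraries, mean count 10), sequencing lane or clock score as a term, only the groups compared, DESeq2 1.42.0, no pancreas-bearing libraries (over 1000 CPM) and each library left out in turn. All 29 members are named. The members, lists and comparisons were chosen with earlier results of these data known. Precision is limited by 4 to 6 animals a group. Some results for single genes of the SREBP partner list are not reported here.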

Additional observations from a re-analysis of the deposited data

Results flagged for a closer look

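Of 232 combinations of a member and a group, 17 had 1 library far from the others of its group by Dixon's test at 95%, where chance flags about 1 in 20, and they lay in 9 libraries. DDC+HFD replicate 32 stood high for Hmgcs1 (1502 CPM), Aacs (200 CPM, 199.8 before rounding), Mvd (84.1 CPM), Lss (321 CPM), Hsd17b7 (162 CPM), Sc5d (1161 CPM) and Insig1 (1167 CPM), 7 of the 17. HFD replicate 16 stood high for Mvk (39.9 CPM) and Sqle (209 CPM). EtOH replicate 21 stood high for Insig1 (478 CPM) and Tmem97 (116 CPM). Single high values were Fdft1 in DDC+EtOH replicate 38 (206 CPM), Hmgcs1 in DDC+Cont replicate 29 (726 CPM), Nsdhl in DDC 0D replicate 7 (92.7 CPM) and Soat2 in DDC+HFD replicate 36 (40.4 CPM). Low values were Tm7sf2 in DDC 0D replicate 6 (33.0 CPM) and Msmo1 in DDC+Cont replicate 28 (162 CPM).

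The DDC effect differed between the later and the earlier stage, by the interaction term, for 5 of 29 members, against 32.1% of all tested genes. These were Tm7sf2 (1.16), Ebp (0.87), Scap (0.79), Stard4 (0.62) and Npc2 (-0.49). The values are log2 differences of DDC+Cont against Control 28D less DDC 0D against Control 0D. The Stard4 call was lost in 15 of 26 alternatives.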

How the results depend on the processing

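No paired analysis was possible because every library carries its own animal number and no number is shared between groups. Over 83 called member results (57 of group comparisons or interactions, 17 slopes on Hmgcs1 and 9 clock slopes) and 2263 pairs of such a result and an alternative, 2080 kept direction and call, 181 lost the call and 2 turned. With the clock score as a term, Insig2 turned to 0.14 in DDC 0D against Control 0D and to -0.25 in DDC+Cont against DDC 0D. The scores did not overlap in either pair, so the score and the group cannot be told apart there. Members called with that term were 11 in place of 7 in DDC 0D against Control 0D. They were 4 in place of 2 in DDC+HFD against DDC+Cont, where the scores did not overlap, and 2 in place of 0 in DDC+HFD against HFD. With only the groups compared, they were 1 in place of 17 in DDC+EtOH against DDC+HFD, 1 in place of 2 in DDC+HFD against DDC+Cont, 1 in place of 0 in DDC+Cont against Control 28D (Hsd17b7), and 11 in place of 5 for the DDC effect by stage. Without pancreas-bearing libraries they were 0 in place of 2 in DDC+HFD against DDC+Cont, 2 in place of 0 in DDC+HFD against HFD, and 1 in place of 9 for the clock slope, which had 16 with lane as a term. The cause was not tested.

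Leaving out 1 library in turn, members called ranged from 10 to 19 in DDC+EtOH against DDC+HFD, 10 to 15 in EtOH against HFD, 7 to 7 in DDC 0D against Control 0D, 8 to 11 in DDC+Cont against DDC 0D, 1 to 2 in DDC+HFD against DDC+Cont, 0 to 1 in DDC+HFD against HFD (1 without DDC+HFD replicate 36, Npc2), 0 to 1 in Control 28D against Control 0D, 4 to 5 for the DDC effect by stage, 17 to 18 for the slope on Hmgcs1 and 4 to 17 for the clock slope.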
